A study of Mus musculus with 12 samples.

Results

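The clustered protocadherins of mouse oligodendrocyte (OL) cultures were described here, namely every gene of the count table whose symbol begins with Pcdha, Pcdhb or Pcdhg. The rule took 58 of the 56860 named genes in the table, 14 from the alpha cluster, 22 from the beta cluster and 22 from the gamma cluster, and it used no measured value. The study asked which genes change in differentiated OLs when the transcription factor Egr2 is targeted. Primary OLs were made from the cortex of newborn C57BL/6J mice (P6–P7) by capture of O4+ cells on beads, expanded with PDGF-AA and matured with insulin, triiodothyronine and ciliary neurotrophic factor. There were 6 libraries of cells treated with siEgr2 and 6 of cells given a scrambled control (siNC), all harvested 48 h later. The labels give the medial prefrontal cortex as the tissue of both groups, and the methods call the reagent an siRNA in some places and an interference plasmid in others.

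Clustered protocadherins are cell surface proteins of the cadherin superfamily that bind the same isoform on a facing membrane, and they are best known for letting a neuron tell its own branches from those of other neurons. In the alpha and gamma clusters each gene brings its own large first exon, which encodes the extracellular, transmembrane and proximal cytoplasmic parts, and splices it to small constant exons shared by the whole cluster, whereas beta genes stand alone. Neurons switch on a few of these promoters at random, guided by CTCF, cohesin and DNA methylation, while the C-type isoforms at the end of the alpha and gamma clusters are used more broadly. Glia express clustered protocadherins as well.

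All 58 genes lie on the plus strand of chromosome 18 (GRCm38, the build the labels name as mm10). The alpha cluster spans positions 36930184 to 37187661 (257.5 kb), the beta cluster 37264938 to 37524479 (259.5 kb) and the gamma cluster 37661793 to 37841873 (180.1 kb). All 14 alpha genes end in the same 3 coding exons, which hold 456 coding bases, and all 22 gamma genes end in 3 others with 372 coding bases. The median first exon is 2386.5 coding bases long in alpha and 2421 in gamma, so that most of each coding sequence is its own. The 22 beta genes have a single coding exon each, with a median of 2388 bases. How the authors assigned a read from a shared exon is not given in the sources used here, and its part in the values below was not tested.

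The libraries held 28682946 to 39383014 counts in siNC and 8034251 to 16683677 in siEgr2, and the 18S ribosomal RNA gene took 0.142% to 1.05% of counts in siNC against 10.5% to 16.5% in siEgr2. Neither measure overlapped between the groups, so neither can be told apart from the treatment in any group comparison here. Levels are given as CPM, counts scaled to the size of each library with TMM factors. A call needed both an absolute log2 fold change above 0.5, positive where siEgr2 was higher, and an adjusted p below 0.05 in the quasi-likelihood test of edgeR. Egr2 itself measured 5.35 ± 1.27 CPM in siNC and 3.77 ± 1.01 CPM in siEgr2 (SD, n = 6), a log2 fold change of -0.51 (SE 0.208) that did not pass (adjusted p = 0.0981, edgeR). The labels do not say whether the libraries came from separate cultures, so p-values measure the spread between these libraries, which may be technical. The summed level of 10 OL markers was 7849 to 8916 CPM in siNC and 7329 to 7645 CPM in siEgr2, and that of 8 astrocyte markers was 8119 to 8814 CPM and 5206 to 5870 CPM, with 5 of the 8 called lower and none called higher. The 8 precursor markers summed to 4937 to 5162 CPM in siNC and 5948 to 6084 CPM in siEgr2, with Pdgfra and Cspg4 called higher and none called lower. The 7 fibroblast and pericyte markers summed to 814 to 1359 CPM and 837 to 1030 CPM, with Pdgfrb and Rgs5 called lower. The 12 neuron markers summed to 476 to 737 CPM in siNC and 488 to 737 CPM in siEgr2, with Stmn2 called lower (log2 fold change -0.91, edgeR adjusted p = 0.00105). Most of this sum came from Map2, Tubb3 and Dcx (means of 308, 114 and 64.7 CPM in siNC), and the other tested ones had means of 0.884 to 14 CPM there. Aif1 of microglia and Cldn5 of endothelium were at 0 in every library, and the part of other cells in the protocadherin values was not tested. In such bulk libraries, fewer cells of a type and less RNA per cell cannot be told apart.

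Clustered protocadherin RNA was abundant and came mostly from the gamma cluster. Together the 58 genes reached 1812 ± 39.2 CPM in siNC and 1626 ± 206 CPM in siEgr2 (SD, n = 6). The gamma genes gave 82.9% to 86.6% of this sum in the siNC libraries and 73.3% to 83.5% in the siEgr2 libraries, the beta genes 11% to 13.6% and 12.9% to 22.4%, and the alpha genes 2.08% to 3.46% and 2.58% to 4.32%. Pcdhb1, the first beta gene, had no count in any library, which allows up to 0.0147 CPM over the siNC libraries and 0.0401 CPM over the siEgr2 libraries (3 counts per group, counting error only). The other 57 genes had counts, and 55 passed the filter on low counts, Pcdha2 and Pcdha3 being the others that did not.

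**Figure D1:**
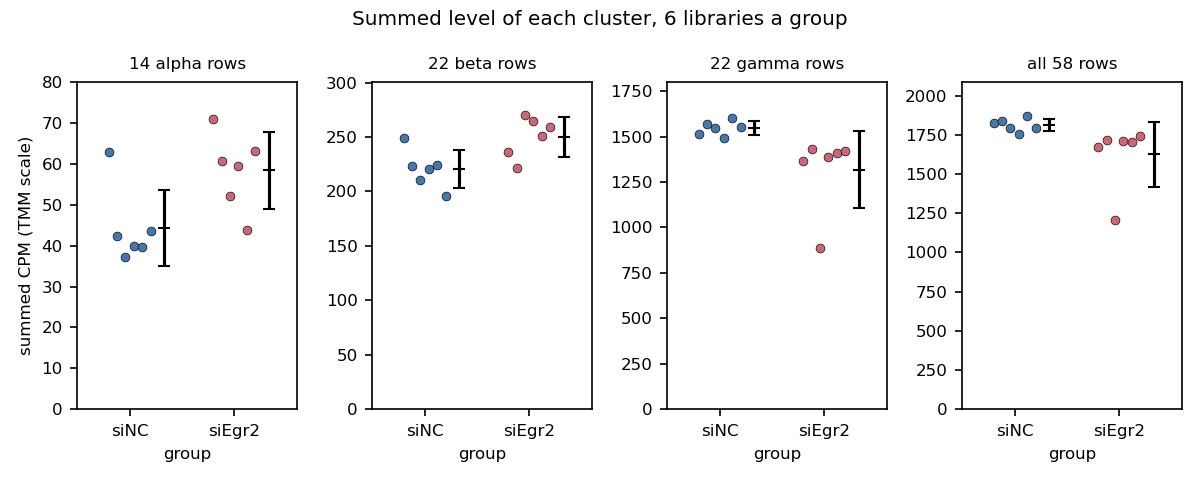
Summed CPM (TMM scale, axes from 0) of the alpha, beta and gamma clusters and of all 58 genes. Points are the 6 libraries of each group, and bars are the mean ± SD. The siEgr2 points of the gamma sum lie below every siNC point, and the library siEgr2 3 lies lowest at 886 CPM.

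The gamma sum was lower in every siEgr2 library than in every siNC library, with a single siEgr2 library far below the rest. It measured 1512, 1571, 1547, 1494, 1603 and 1552 CPM in siNC 1 to 6, and 1366, 1433, 886, 1386, 1410 and 1420 CPM in siEgr2 1 to 6. The groups did not overlap. Of all genes tested 7% did not overlap in this direction, but a share of single genes is no reference for a sum over a cluster. The difference in mean log2 was -0.25 (SE 0.112), and without siEgr2 3 it was -0.14 (SE 0.0194). Without Pcdhgc3, left out after the values were seen, the groups overlapped (859 to 1013 CPM in siNC, 318 to 903 CPM in siEgr2). The difference was then -0.61 (SE 0.261). Scaling libraries by their totals alone moved the median log2 fold change over all genes tested from 0.00458 to -0.18, and the gamma difference to -0.43 (SE 0.104), which is -0.26 relative to that median under both scalings. The sum over the 12 gamma genes that stayed within 3-fold of their group median, a selection made after the values were seen, differed by 0.042 (SE 0.158), and the sum over the other 10 by -1.10 (SE 0.487). Genes were split by jumps that also enter these sums, so the contrast does not test where the difference lies.

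The alpha and beta sums pointed the other way, and their groups overlapped. The alpha sum was 37.3 to 63 CPM in siNC and 43.9 to 71.1 CPM in siEgr2, a difference of 0.40 on the log2 scale (SE 0.147). Its value in siNC 1 (63 CPM) stood above the other siNC libraries, which lay between 37.3 and 43.5 CPM. With the C-type isoforms Pcdhac1 and Pcdhac2 left out, the alpha difference was 0.15 (SE 0.191). The beta sum was 196 to 249 CPM in siNC and 222 to 270 CPM in siEgr2, a difference of 0.18 (SE 0.0638). Relative to the median over all genes, the alpha difference was 0.40 and the beta difference 0.18 also with libraries scaled by their totals alone.

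Of the 55 tested genes, 4 (7.27%) were called, beside 7.72% of all genes tested. Higher in siEgr2 were Pcdha1 and Pcdhac1 (2.63% of all genes were called higher), and lower were Pcdhgb1 and Pcdhgc5 (5.08% of all genes were called lower). The median log2 fold change was 0.16 beside 0.00458 over all genes tested. With libraries scaled by their totals alone, the median of the members lay 0.15 above that of all genes, where it lay 0.16 above it in the TMM scaling. The standard error exceeded 0.5 for 18 of the 55 genes. DESeq2 called 8 genes, beside 8.9% of all genes, and limma-voom 1, beside 7.86%, and Pcdhgc5 was the gene that all 3 tools called. It was also the only tested member whose groups did not overlap, where 4.15% of all genes lay wholly above and 7% wholly below.

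**Figure D2:**
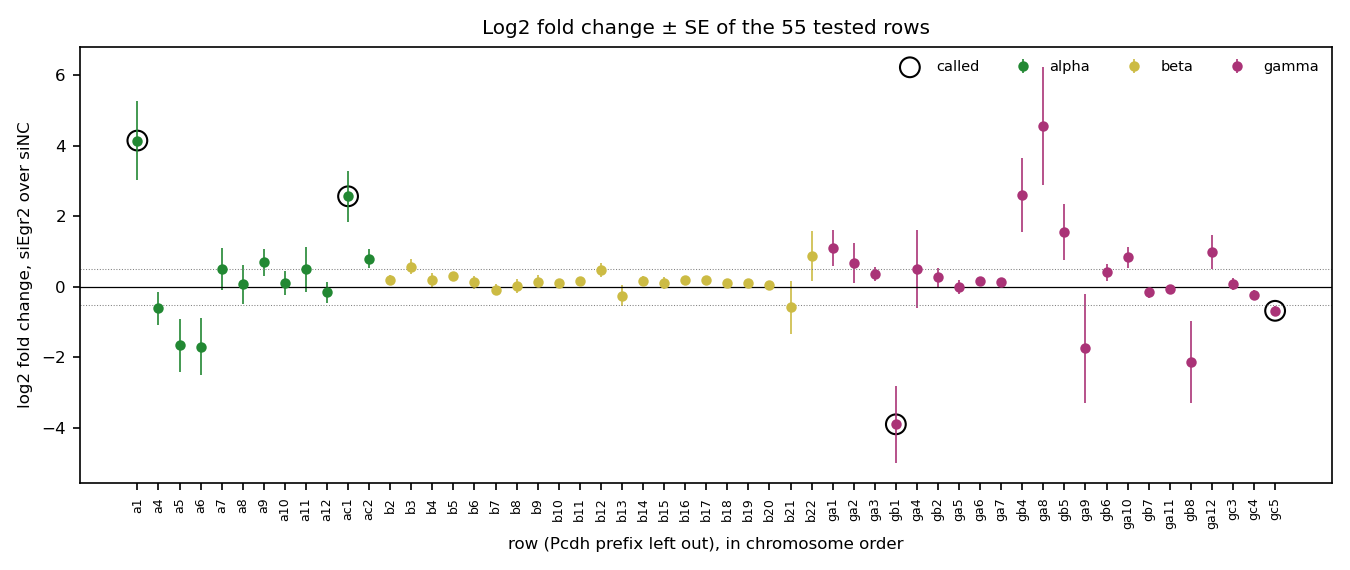
Log2 fold change (siEgr2 over siNC) with its standard error for the 55 tested genes in chromosome order, coloured by cluster. Circles mark the 4 called genes, and dotted lines mark the fold change threshold of 0.5 in each direction. Among beta genes Pcdhb3, Pcdhb21 and Pcdhb22 lie beyond the dotted lines, the last 2 with long bars, and alpha and gamma genes with large changes carry long bars.

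Among the gamma C-type isoforms, Pcdhgc5 was lower in siEgr2, Pcdhgc3 had the largest mean of all members in both groups, and Pcdhgc4 was low in both groups. In siNC 5, however, Pcdhga9 (614 CPM) lay above Pcdhgc3 (590 CPM). Pcdhgc5, which is known to bind GABA-A receptors in neurons, measured 24.0, 25.7, 35.3, 24.6, 26.5 and 33.6 CPM in siNC 1 to 6. In siEgr2 1 to 6 it measured 19.7, 19.4, 15.6, 22.1, 15.2 and 13.6 CPM. The lowest siNC library thus lay above the highest siEgr2 library, and the means were 28.3 ± 4.87 and 17.6 ± 3.26 CPM (SD, n = 6). The log2 fold change was -0.68 (SE 0.13, adjusted p = 0.00132, edgeR, with adjustment over all genes tested). At the same thresholds it was called in all 22 other fits, with values from -0.86 to -0.60, and it was not called where the fold change threshold was raised to 1. The astrocyte markers given above were lower in the same group, and their part in the Pcdhgc5 values was not tested.

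Pcdhgc3, an isoform that binds Axin1 and promotes dendrite branching, had 590 to 662 CPM in siNC with a median of 635. In siEgr2 it had 507 to 969 CPM with a median of 566. Its coefficient of variation (CV) was 4.06% in siNC and 31.2% in siEgr2, where siEgr2 4 (910 CPM) and siEgr2 6 (969 CPM) lay above all other libraries and 4 libraries lay between 507 and 568 CPM. The groups overlapped and the log2 fold change was 0.084 (SE 0.174, edgeR adjusted p = 0.791), with a negative sign when siEgr2 4 or siEgr2 6 was left out. The antisense gene BC037039 overlaps Pcdhgc3 in the annotation, and whether counting used the strand is not given in the sources used here.

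Pcdhgc4, the isoform on which the survival of many neurons depends, had 7.09 to 11 CPM in siNC (median 9.43) and 6.14 to 10.6 CPM in siEgr2 (median 7.41). Its groups overlapped, and its log2 fold change of -0.24 (SE 0.15) did not pass (edgeR adjusted p = 0.302). The 2 C-type isoforms of the alpha cluster had the opposite sign. Pcdhac2, which serotonergic axons need to spread evenly over their targets, had 10.3 to 12.9 CPM in siNC (median 12.2). In siEgr2 1 to 6 it had 31.8, 32.6, 12.7, 10.2, 14.3 and 21.3 CPM. Of the siEgr2 libraries, 4 lay above every siNC library, while siEgr2 3 and siEgr2 4 lay within or just below the siNC range. The log2 fold change was 0.79 (SE 0.269) and just missed the threshold (adjusted p = 0.0596, edgeR), which DESeq2 passed (adjusted p = 0.00659). Leaving out siEgr2 3 or siEgr2 4 led edgeR to call Pcdhac2 as well, which made 3 calls in 22 other fits. The highest adjusted p was 0.122 (edgeR without a filter on low counts).

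Pcdhac1 was called higher, from a low level. It had 18, 8, 13, 32, 17 and 22 counts in siNC 1 to 6 and 8, 37, 6, 133, 6 and 46 counts in siEgr2 1 to 6, which is 0.244 to 0.937 CPM and 0.371 to 9.94 CPM. Libraries siEgr2 2, 4 and 6 were high and the other 3 lay within the siNC range, so the groups overlapped. The log2 fold change was 2.57 (SE 0.721, edgeR adjusted p = 0.0237). Without siEgr2 4, the highest library, it was 1.75 and no longer passed (adjusted p = 0.0543), nor did it pass without siNC 3 (0.0539) or siNC 6 (0.0511). The call was also lost with limma-voom (1.65, adjusted p = 0.162), with the replicate number as a block (1.95, adjusted p = 0.0602) and without a filter on low counts (adjusted p = 0.0508). Pcdhac1 was not tested under the stricter filter, after thinning to the smallest total or without siNC 4, where it did not pass the filter.

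The alpha genes other than the C types were low, and 10 of the 12 had a library over 3-fold from its group median, Pcdha10 and Pcdha12 being the others. Pcdha1, the first gene of the cluster, had no count in siNC 1, 2 and 5 and 10, 17 and 3 counts in siNC 3, 4 and 6. In siEgr2 1 to 6 it had 57, 77, 0, 13, 5 and 46 counts. Libraries siEgr2 1, 2 and 6 were high, siEgr2 3 was at 0, and the groups overlapped. The log2 fold change of 4.15 (SE 1.11, edgeR adjusted p = 0.0202) set 2.7 ± 2.52 CPM in siEgr2 against 0.149 ± 0.212 CPM in siNC (SD, n = 6). The call held when each library was left out in turn, with fold changes from 3.70 to 5.04. Since the gene passed the filter on low counts mostly through siEgr2 libraries, where it was higher, this is no independent support. The call was lost with limma-voom (4.05, adjusted p = 0.17), with the replicate number as a block (4.05, adjusted p = 0.163) and without a filter on low counts (4.10, adjusted p = 0.0527). The gene did not pass the stricter filter or, after thinning to the smallest total, the filter on low counts, and was not tested there.

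Over all 12 libraries, the largest mean alpha levels outside the C types belonged to Pcdha12, Pcdha10 and Pcdha11, and none of the 3 was called. Proteins of the alpha cluster reach the cell surface poorly unless another protocadherin accompanies them. Pcdha12 had 5.14 to 9.82 CPM in siNC (median 6.53) and 2.95 to 11.8 CPM in siEgr2 (median 5.32). Pcdha10 had 2.93 to 10.8 CPM (median 4.37) and 3.17 to 9.14 CPM (median 5.12). Pcdha11 had 1.56 to 5.94 CPM (median 5) and 0.975 to 13.1 CPM (median 3.73). These ranges overlapped between the groups for all 3 genes, with log2 fold changes of -0.15, 0.11 and 0.49 and edgeR adjusted p-values of 0.772, 0.864 and 0.65. With single libraries left out the value of Pcdha12 ran from -0.47 (without siEgr2 4) to -0.014 (without siNC 1), and that of Pcdha11 from 0.078 (without siEgr2 3) to 0.71 (without siEgr2 6), without a call. That of Pcdha10 ran from -0.11 (without siEgr2 1) to 0.46 (without siNC 1), also without a call. Pcdha7 had the largest within-group CV of the alpha genes with a mean of at least 20 counts in both groups, 106% in siEgr2, where siEgr2 4 had 13.7 CPM and the others 1.3 to 3.41 CPM. Its log2 fold change was 0.51 (SE 0.585, edgeR adjusted p = 0.605) and turned to -0.30 without siEgr2 4. Pcdha5 and Pcdha6, named after their values were seen, had the most negative alpha fold changes, -1.66 (SE 0.749) and -1.69 (SE 0.808), and neither passed (edgeR adjusted p = 0.143 and 0.173). The other tested alpha genes, Pcdha4, Pcdha8 and Pcdha9, had log2 fold changes of -0.61, 0.071 and 0.70 without a call, though edgeR called Pcdha9 higher without siEgr2 5.

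Most beta genes stayed close to their group median in every library. Of the 21 tested, edgeR and limma-voom called 0 and DESeq2 called 1, Pcdhb3, and 3 had an unadjusted p under 0.05 in edgeR (32% of all genes tested). Of all genes tested 7.72% were called, so a count of 0 among 21 does not set the beta genes apart. The log2 fold changes had a median of 0.14 and a range from -0.58 to 0.87. The beta median lay 0.14 above that of all genes tested both with TMM factors and with libraries scaled by their totals alone. Pcdhb20 had 23.1 to 27 CPM in siNC (median 24.6) and 22.7 to 30.1 CPM in siEgr2 (median 25.8), and a log2 fold change of 0.058 (SE 0.0734, edgeR adjusted p = 0.639). Pcdhb19 had 20 to 26.5 CPM (median 25.1) and 21.3 to 28.7 CPM (median 26.5), and a log2 fold change of 0.10 (SE 0.0887, edgeR adjusted p = 0.47). Both genes had overlapping groups. Pcdhb3, named because DESeq2 called it (adjusted p = 0.0434), had 2.77 to 5.35 CPM in siNC and 3.83 to 8.3 CPM in siEgr2, and a log2 fold change of 0.57 (SE 0.211, edgeR adjusted p = 0.0713).

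Pcdhb22 and Pcdhb21, the last beta genes, were the exceptions. Pcdhb22 had 28.7, 27.1 and 25.8 CPM in siNC 1, 3 and 4 but 1.65, 1.47 and 4.86 CPM in siNC 2, 5 and 6. In the siEgr2 libraries it had 22.9 to 30.4 CPM. The siNC libraries thus fell into a high and a low set, and all siEgr2 libraries lay with the high set, with a log2 fold change of 0.87 (SE 0.705) that did not pass (edgeR adjusted p = 0.445). Pcdhb21 had 9.86 to 15.3 CPM in 5 siNC libraries and 0.293 CPM in siNC 4. In siEgr2 it had 9.42 to 14.6 CPM in siEgr2 1, 4 and 6 and 1.85 to 2.28 CPM in siEgr2 2, 3 and 5. The libraries low in Pcdhb21 were not those low in Pcdhb22. Pcdhb21 (37513621 to 37518325) and Pcdhb22 (37517871 to 37524479) overlap in the annotation, and how reads of overlapping genes were assigned is not given in the sources used here.

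Among the gamma A and gamma B genes were the largest jumps in CPM between libraries of a group. In every siNC library a single one of them had a level near that of Pcdhgc3, and it was either Pcdhga9 or Pcdhgb1. Pcdhga9 had 541, 594 and 614 CPM in siNC 1, 2 and 5 and 25.7, 7.32 and 24.3 CPM in siNC 3, 4 and 6. Pcdhgb1 had 565, 544 and 571 CPM in siNC 3, 4 and 6 and 18.7, 14.2 and 22.8 CPM in siNC 1, 2 and 5. Each gene was therefore high in 3 siNC libraries in which the other was low, and their CVs in siNC were 103% each, where counting alone gives 1.01% and 0.993%. The sum of both was steady, 551 to 637 CPM with a CV of 5.38%.

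**Figure D3:**
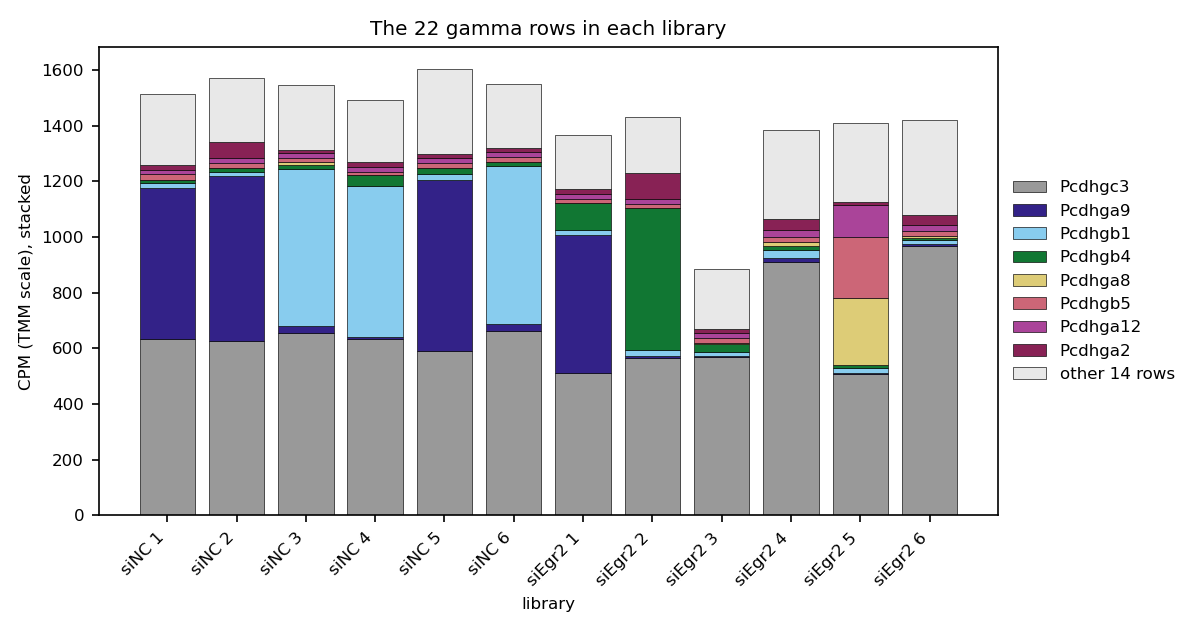
CPM (TMM scale, from 0) of the 22 gamma genes in each of the 12 libraries, stacked. Pcdhgc3 is at the base, 7 genes with large jumps have their own colours and the other 14 are summed. A block of 541 to 614 CPM belongs to Pcdhga9 in siNC 1, 2 and 5 and to Pcdhgb1 in siNC 3, 4 and 6, and blocks of 495 and 510 CPM belong to Pcdhga9 in siEgr2 1 and to Pcdhgb4 in siEgr2 2, while no gamma A or B gene exceeds 242 CPM in the other 4 libraries.

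Only siEgr2 1 and siEgr2 2 had a gamma A or B gene near the level of Pcdhgc3, and it was not the same gene. Pcdhga9 had 495 CPM in siEgr2 1 and 3.59 to 13.3 CPM in the other 5 siEgr2 libraries. Pcdhgb4 had 510 CPM in siEgr2 2, 96.3 CPM in siEgr2 1 and 9.84 to 27.7 CPM in the other 4. In siEgr2 5 the highest of them were Pcdhga8 (242 CPM), Pcdhgb5 (218 CPM) and Pcdhga12 (114 CPM). In siEgr2 4 and siEgr2 6, the libraries with the high Pcdhgc3, no gamma A or B gene exceeded 59.5 CPM. In siEgr2 3, the library with the low gamma sum, the highest of them was Pcdhga3 at 35.7 CPM and Pcdhgc3 was at 568 CPM. Pcdhga8 and Pcdhga12 were named here after their values were seen.

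Pcdhgb1 was called lower on these values. All 6 siEgr2 libraries had 12.8 to 30.8 CPM, the level of the 3 low siNC libraries, so that the groups overlapped and the means of 289 ± 297 and 19.4 ± 6.25 CPM (SD, n = 6) rested on 3 siNC libraries. The log2 fold change was -3.89 (SE 1.09, edgeR adjusted p = 0.0295). Leaving out siNC 3, siNC 4, siNC 6 or any siEgr2 library ended the call, with adjusted p-values from 0.0518 to 0.0623, and it was also lost with limma-voom (-2.48, adjusted p = 0.46) and with the replicate number as a block (-2.50, adjusted p = 0.297). Pcdhga9, with the same kind of values but a high level also in siEgr2 1, had a log2 fold change of -1.74 (SE 1.54, edgeR adjusted p = 0.486), and without siEgr2 1 it was -5.30 and was called (adjusted p = 0.0299).

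The other large gamma A and B genes were not called. Pcdhgb4 had 10.9 to 37.4 CPM in siNC (median 14) and a median of 20.2 CPM in siEgr2, with a log2 fold change of 2.60 (SE 1.05, edgeR adjusted p = 0.115), and DESeq2 called it (adjusted p = 0.0252). Without siEgr2 2, its highest library, the log2 fold change was 0.80 in edgeR (adjusted p = 0.467). Pcdhgb5 had 10.3 to 19 CPM in siNC (median 17.1) and a median of 16.1 CPM in siEgr2, where it lay between 13.5 and 19 CPM outside siEgr2 5. Its log2 fold change of 1.55 (SE 0.787, edgeR adjusted p = 0.209) turned to -0.064 without siEgr2 5. Pcdhga3 had 26 to 35.9 CPM in siNC (median 30.9) and 26.8 to 59.5 CPM in siEgr2 (median 33.3), with a log2 fold change of 0.36 (SE 0.21, edgeR adjusted p = 0.264). Pcdhga11 had 28.5 to 33.8 CPM (median 30.7) and 19.7 to 38.7 CPM (median 30.8), with a log2 fold change of -0.073 (SE 0.133, edgeR adjusted p = 0.759). These last 2 genes were steady in siNC, and their groups overlapped.

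The remaining gamma A and B genes were not called by edgeR with all libraries either, and those described here were picked after their values were seen. Pcdhga8 had the largest positive fold change, 4.56 (SE 1.68, edgeR adjusted p = 0.0873), and apart from 242 CPM in siEgr2 5 it lay between 0.131 and 16.1 CPM. Without siNC 3 edgeR called it higher. Pcdhgb8, which the annotation lists as a polymorphic pseudogene, had 27.9 and 76.9 CPM in siNC 1 and 5 and 0.947 to 7.18 CPM in the other 10 libraries. Pcdhga4 took a high or a low level in each group. It had 13.4 to 15.7 CPM in siNC 2, 3 and 6 and 0.465 to 0.589 CPM in siNC 1, 4 and 5, then 15 to 28.2 CPM in siEgr2 2, 4 and 6 and 0.927 to 2.02 CPM in siEgr2 1, 3 and 5. Pcdhga10, which DESeq2 called (adjusted p = 0.0135), had 4.49 to 7.15 CPM in siNC and 6.32 to 24.1 CPM in siEgr2, and a log2 fold change of 0.83 (SE 0.303, edgeR adjusted p = 0.0732). Pcdhga6, Pcdhga7 and Pcdhgb7 had log2 fold changes of 0.16, 0.15 and -0.16, and those of Pcdhga1, Pcdhga2, Pcdhga5, Pcdhgb2, Pcdhgb6 and Pcdhga12 ran from -0.002 to 1.11.

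**Figure D4:**
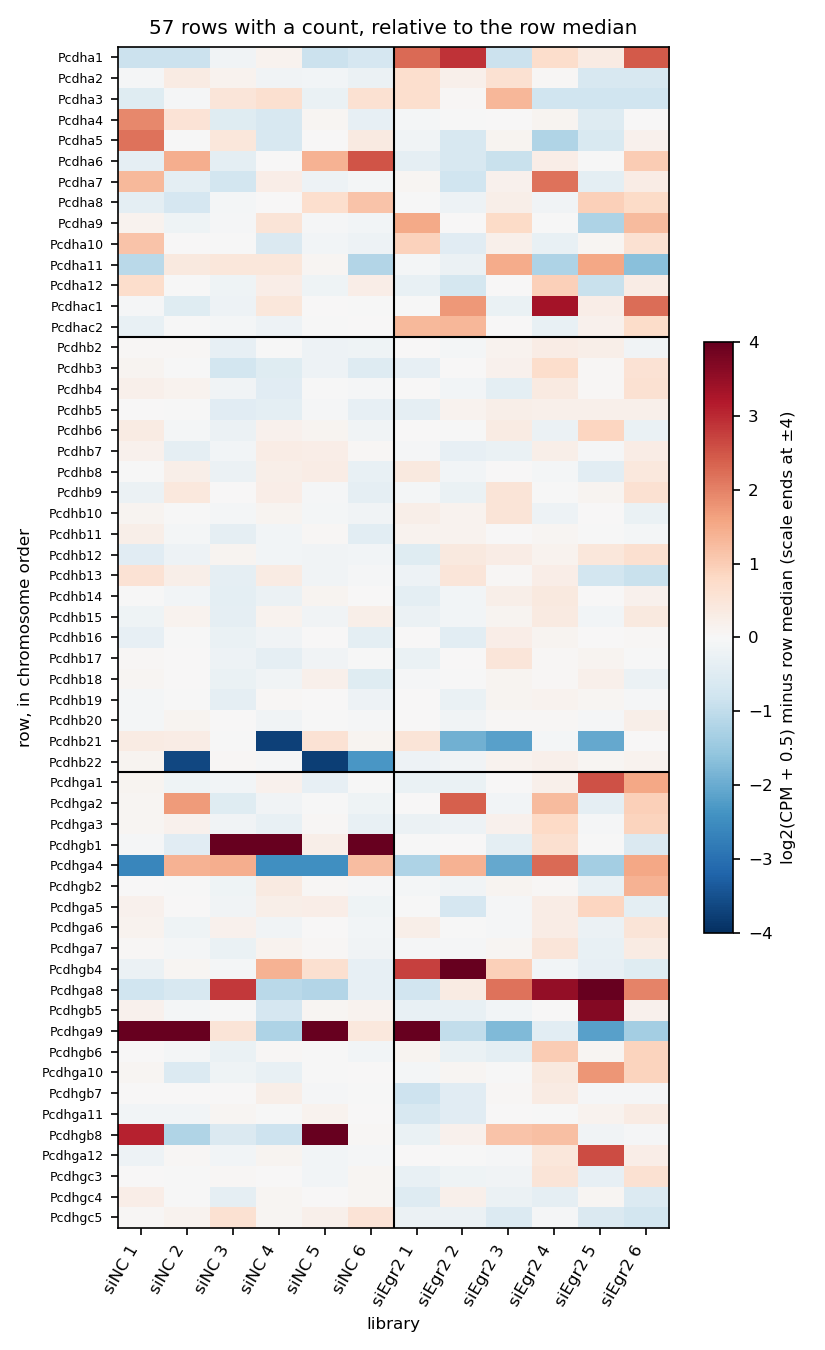
Log2(CPM + 0.5) of the 57 genes with a count, minus the median of each gene over the 12 libraries, in chromosome order (red higher, blue lower, scale ending at 4 log2 units each way). Beta genes are pale in every library apart from Pcdhb21 and Pcdhb22, and single dark cells in the alpha and gamma clusters mark the libraries that stand apart.

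Jumps of this kind were frequent in the family. A gene was counted as unsteady when any library lay over 3-fold from its group median, a limit chosen after the values were seen. Among the 50 members with a mean of at least 20 counts in both groups, 16 (32%) were unsteady, beside 3.46% of the 13916 genes of the whole table with such counts. They were 4 of 7 alpha genes, 2 of 21 beta genes (Pcdhb21 and Pcdhb22) and 10 of 22 gamma genes, and 0 of the 4 C-type isoforms with such counts. Of the called genes Pcdhgc5 was steady and Pcdha1, Pcdhac1 and Pcdhgb1 were unsteady. Over the tested beta genes the median CV was 17.2% in siNC and 19.2% in siEgr2, over the gamma genes it was 13.7% and 48.8%, and over the alpha genes, which had fewer counts, it was 61.9% and 69.7%.

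The annotated ends of the alpha and gamma genes were compared after the values were seen. Of the 22 gamma genes, 5 end at position 37841870, namely Pcdhga2, Pcdhgb1, Pcdhgb4, Pcdhga9 and Pcdhgb8, and all 5 were unsteady. The other 17 end at 37841873, and 5 of them were unsteady, namely Pcdhga1, Pcdhga4, Pcdhga8, Pcdhgb5 and Pcdhga12. The 5 genes with the earlier end summed to 606 to 753 CPM in siNC, with a CV of 8.79%. In siEgr2 they summed to 630 and 635 CPM in siEgr2 1 and 2 and to 49.6 to 106 CPM in the other 4. Of the 14 alpha genes, 2 end at 37187661, both unsteady, and 9 of the 12 that end at 37187657 were unsteady. The part of these annotated ends in the values was not tested.

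**Figure D5:**
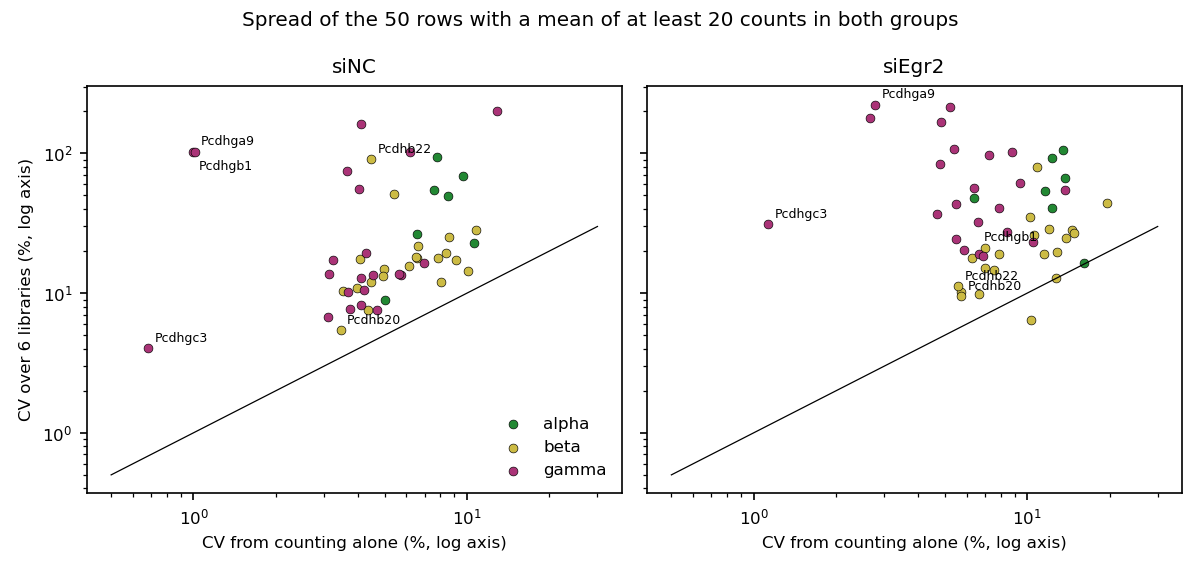
CV over the 6 libraries of each group against the CV that counting alone would give (both in %, log axes) for the 50 genes with a mean of at least 20 counts in both groups, coloured by cluster. On the line the 2 are equal. Most beta genes lie a short way above it, while Pcdhga9 and Pcdhgb1 in siNC and Pcdhga9 in siEgr2 lie far above it.

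Per length of coding sequence, Pcdhgc3 stood at 226 CPM per kb in siNC and 240 CPM per kb in siEgr2. Pcdhga9 and Pcdhgb1 followed with means of 108 and 105 CPM per kb in siNC, each carried by 3 libraries. The next levels in siNC were those of Pcdhga3 and Pcdhga11 (11 CPM per kb each), Pcdhb20 (10.4), Pcdhb19 (10) and Pcdhgc5 (9.99 CPM per kb). The level of Pcdhga3 differed from that of Pcdhga11, and that of Pcdhb20 from that of Pcdhb19, by less than the SD of either gene. The median was 6.48 CPM per kb over the gamma genes, 3.17 over the beta genes and 0.824 over the alpha genes. Among alpha genes Pcdhac2 was highest with 3.93 CPM per kb, and 6.79 CPM per kb in siEgr2.

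Genes known to act on the clusters were expressed in every library, and 0 of the 24 tested were called by edgeR, DESeq2 or limma-voom, which called 7.72%, 8.9% and 7.86% of all genes. Of these regulators 10 had an unadjusted p under 0.05 (32% of all genes did), and 8 had an adjusted p under 0.05 with a positive fold change under the threshold of 0.5 (8.57% of all genes tested had such a p with a positive fold change). The lowest adjusted p-values were those of Dnmt1, the maintenance DNA methyltransferase, with 176 to 197 CPM in siNC and 216 to 262 CPM in siEgr2 (log2 fold change 0.35, adjusted p = 7.22e-05, edgeR), Setdb1, a histone methyltransferase (0.22, adjusted p = 0.00123), and Rad21, a cohesin subunit (0.20, adjusted p = 0.00177). Ctcf, which anchors the promoter loops, had 95 to 113 CPM in siNC and 106 to 111 CPM in siEgr2 (log2 fold change 0.11, edgeR adjusted p = 0.0864). The median log2 fold change over the 24 was 0.11.

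Of 25 genes that process clustered protocadherins or signal with them, 0 were called by any of the 3 tools, beside 7.72% of all genes in edgeR, 5 had an unadjusted p under 0.05, beside 32% of all genes, and 3 had an adjusted p under 0.05, beside 19.9%. The median log2 fold change was 0.017. Cyfip1, a subunit of the WAVE actin regulatory complex, had the lowest adjusted p, with 182 to 200 CPM in siNC and 162 to 170 CPM in siEgr2 (log2 fold change -0.21, SE 0.035, edgeR adjusted p = 0.000492). Adam10, the protease that sheds their extracellular part, had a log2 fold change of 0.017 (SE 0.152, edgeR adjusted p = 0.958).

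Among the relatives outside the clusters, Pcdh15 of the non-clustered protocadherins was called higher. It had 56.9 to 75.2 CPM in siNC and 79.4 to 130 CPM in siEgr2, without overlap, and a log2 fold change of 0.70 (SE 0.119, edgeR adjusted p = 0.000948). The precursor markers given above were higher in the same libraries, and their part in the Pcdh15 values was not tested. It was the only called gene of the 11 tested, beside 7.72% of all genes, and 5 of the 11 had an unadjusted p under 0.05 in edgeR, beside 32%. The median log2 fold change of the 11, 0.16, equalled that of the clustered members to 2 decimals. Of 8 tested seven-pass and giant cadherins 6 had an unadjusted p under 0.05 in edgeR (32% of all genes did). The 1 called was Celsr1, which sets planar cell polarity (5.08% of all genes were called lower). It had 14.1 to 17.7 CPM in siNC and 6.79 to 11 CPM in siEgr2 (log2 fold change -0.79, SE 0.118, edgeR adjusted p = 0.000156). Of 12 tested classical and type II cadherins, 0 were called by any of the 3 tools, with 3 at an unadjusted p under 0.05 (7.72% of all genes were called by edgeR and 32% had such a p), and Cdh2, the N-cadherin gene, had the lowest adjusted p (log2 fold change -0.26, SE 0.037, edgeR adjusted p = 9.25e-05).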

How the data were processed

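RNA-seq of 6 siNC and 6 siEgr2 libraries was analyzed. The authors isolated total RNA, made Illumina libraries and deposited the counts of each gene symbol without normalizing them. The aligner, counting program and annotation are not given in the sources used here. A blank entry without counts was left out. In R 4.3.3, low genes were removed with filterByExpr, libraries were scaled by TMM, and groups were compared with edgeR 4.0.16 (quasi-likelihood, robust, no covariate) with Benjamini-Hochberg adjustment over 16600 genes. The standard error is the fold change divided by the root of the F statistic. Sums were compared on log2(CPM + 0.5) without a test. Gene models came from GENCODE M21 on GRCm38, where 56 of the 58 genes matched by symbol and Pcdha10 and Pcdha11 by the start of their RefSeq gene. Library totals of 8034251 to 39383014 counts limit genes with few counts, above all in siEgr2. Within a group no library copied another (chi-square per gene 7.56 to 39.8 over 30 pairs).

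The members and lists were chosen with earlier results of these data known. Values were given in full for the C-type isoforms, each called gene, the 3 genes of alpha, beta, gamma A and gamma B with the largest mean CPM over all 12 libraries, and the gene of each cluster with the largest within-group CV among those with a mean of at least 20 counts in both groups. The fit was tested on simulated counts for 16446 genes: it recovered 95 of 95 genes changed by 1 log2 unit and 105 of 105 changed by 2, with 12 false calls. Every simulated gene had a biological coefficient of variation of 0.17, and the changed genes were expected above 20 counts in the smallest library. Among tested members that coefficient reached 1.67 (Pcdhga8), so the recovery does not hold for members with a large spread or few counts. Alternatives were other scalings and filters, DESeq2 1.42.0, limma-voom (limma 3.58.1), a replicate block, thinning, structural RNA left out, other thresholds and each library left out. Leaving out unsteady genes or Pcdhgc3, and the 2-fold and 5-fold limits, were chosen after seeing the data.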

Additional observations from a re-analysis of the deposited data

Results flagged for a closer look

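In 10 of the 46 groups of 6 libraries examined, a library stood apart from the other 5 of its group. Chance marks about 1 in 20 groups, but this count cannot be read against it, since some of these genes were taken for their large spread and the sums contain them. In the gamma cluster these were Pcdhga9 in siEgr2 1 (495 CPM, the others 3.59 to 13.3), Pcdhgb4 in siEgr2 2 (510 CPM, the others 9.84 to 96.3), Pcdhgb5 in siEgr2 5 (218 CPM, the others 13.5 to 19) and Pcdhgb5 in siNC 4 (10.3 CPM, the others 15.9 to 19). The gamma sum stood apart in siEgr2 3 (886 CPM, the others 1366 to 1433), and so did the sum of all 58 genes (1208 CPM, the others 1673 to 1742). In the alpha cluster these were Pcdha7 in siNC 1 (7.27 CPM, the others 1.39 to 3.31), Pcdha7 in siEgr2 4 (13.7 CPM, the others 1.3 to 3.41), Pcdha10 in siNC 1 (10.8 CPM, the others 2.93 to 4.67) and the alpha sum in siNC 1 (63 CPM, the others 37.3 to 43.5). The 3 beta genes examined and the beta sum had no such library, and Pcdhb21, which was not among them, had 0.293 CPM in siNC 4 and 9.86 to 15.3 CPM in the others.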

How the results depend on the processing

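Of the 19 genes given in full, the 4 called kept their sign in every other fit in which they were tested, and at the same thresholds only Pcdhgc5 kept its call in all 22. The count of members called higher, 2, was 6 with DESeq2, 1 after thinning to the smallest total (Pcdhb3, neither of the 2), and 0 with limma-voom, without a filter on low counts and with the stricter filter. The count called lower, 2, was 1 with limma-voom and with a fold change threshold of 1, which Pcdhgc5 did not pass. With single libraries left out the 2 counts ranged from 1 to 5 and from 1 to 2, and the 5 without siEgr2 1 were Pcdha1, Pcdhac1, Pcdhb3, Pcdhb12 and Pcdhga10. The single called non-clustered protocadherin became 2 with library size only, 0 with a fold change threshold of 1, 3 with none, and 1 to 2 with single libraries left out. Without a fold change threshold 8 of 24 regulators and 3 of 25 processing and signalling genes passed, beside 19.9% of all genes. Over all genes, 1281 were called, 34.1% of them higher, and by library size only 1974, 12% of them higher.

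Deviations of same-numbered libraries from their group means correlated at -0.0388 to 0.0422. Such low values cannot settle whether same-numbered libraries shared a culture, which the labels do not say. With the replicate block, 0 members were called higher, 1 lower (Pcdhgc5) and 2 non-clustered protocadherins in either direction.

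The sums gave these values. Without C-type isoforms the difference was 0.15 for alpha, -0.61 for gamma and -0.36 for all members. Without the largest gene, Pcdhgc3, it was -0.61 for gamma and -0.34 for all. Without unsteady genes it was 0.042 for gamma. By library size only it was 0.22 for alpha, -0.00036 for beta, -0.43 for gamma and -0.35 for all, which relative to the median over all genes (-0.18) is 0.40, 0.18, -0.26 and -0.17, as in the TMM scaling. With single libraries left out, the alpha sum ranged from 0.34 to 0.51, beta from 0.15 to 0.22, gamma from -0.28 to -0.14 and all members from -0.19 to -0.09, the last values of gamma and of all coming without siEgr2 3.

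Genes that changed sign were not called in any fit in which they did. By library size only these were Pcdha10 (-0.078), Pcdhb19 (-0.081), Pcdhb20 (-0.13) and Pcdhgc3 (-0.11), which lay 0.10, 0.097, 0.052 and 0.071 above the median of all genes. With single libraries left out, Pcdha7 ranged from -0.30 (without siEgr2 4) to 0.96, Pcdha10 from -0.11 (without siEgr2 1; -0.014 without siNC 4) to 0.46, Pcdhgb5 from -0.064 (without siEgr2 5) to 1.75, Pcdhga11 from -0.17 to 0.018 (without siEgr2 1) and Pcdhgc3 from -0.051 (without siEgr2 6; -0.025 without siEgr2 4) to 0.15. The causes were not tested. The count of unsteady genes, 23 of all 58, was 28 at a 2-fold and 16 at a 5-fold limit. A mean of at least 20 counts in both groups was reached by 7 of 14 alpha, 21 of 22 beta and 22 of 22 gamma genes.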
